A study of Drosophila melanogaster with 6 samples.

Results

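The thioester-containing protein (TEP) genes of the fly, Tep1, Tep2, Tep3 and Tep4, and the related gene Mcr were followed in wing discs with and without *dLsd1*. The members were taken by their FlyBase symbols, and all 5 were found among the 17471 genes of the count tables and entered the fit. The family was selected on measured values, because Tep1 and Tep2 were already known to be upregulated in this same genotype comparison. Counts and fold changes of the members are therefore a description and carry no test. RNA came from wing discs of wandering female L3 larvae, and 30 discs went into a sample. There were 3 *dLsd1* mutant samples (dLsd1∆N/dLsd1∆N, homozygous for a deletion in the *dLsd1* gene) and 3 *wild-type* samples (w1118). The mutant chromosome was kept over a balancer and the w1118 stock is inbred but not isogenised, so effects of the allele and of the genetic background cannot be told apart here. Nothing in the labels says that samples of a genotype came from separate cultures, so the spread between them may be partly technical.

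TEPs belong to the same family as vertebrate complement C3 and the protease inhibitor alpha-2-macroglobulin. A TEP is secreted, and many members can bind covalently to a microbial surface through a reactive thioester bond, which marks the microbe for uptake by phagocytes. In flies the genes are expressed mainly in haemocytes, the blood cells, and in the fat body, the larval counterpart of liver and adipose tissue. The wing disc is an epithelium whose cells are not classical immune cells. Mcr (Macroglobulin complement-related) has a further role there, since it is needed to build septate junctions, the seals between epithelial cells.

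The 5 genes lie on chromosome arm 2L of the dm6 assembly and code for proteins. Tep2 (FBgn0041182; 7693727 to 7701601, minus strand, 5 annotated transcripts) and Tep3 (FBgn0041181; 7702805 to 7710690, plus strand, 1 transcript) lie head to head with 1203 bp between them. Mcr (FBgn0267488; 8074117 to 8082982, minus strand, 1 transcript) follows 363 kb further on. Tep1 (FBgn0041183; 15888640 to 15893811, minus strand, 1 transcript) and Tep4 (FBgn0041180; 19548507 to 19556451, plus strand, 4 transcripts) stand alone. The pseudogene Tep5Psi (FBgn0264845) starts 2464 bp beyond the end of Tep4.

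The library totals were between 35466251 and 42452820 counts in the *dLsd1* mutant and between 13960866 and 45909324 in *wild-type*, with *wild-type* replicate 2 the shallowest. The count of *dLsd1* itself, annotated as Su(var)3-3, was 7, 6 and 1 in the mutant libraries and 2136, 676 and 2564 in the *wild-type* libraries, as the labels say. The quasi-likelihood test of edgeR was fitted with TMM factors to all features with at least 10 counts in total. The thresholds for differential expression were 0.6 for the absolute log2 fold change and 0.1 for the p-value adjusted by Benjamini and Hochberg's method. They were passed by 710 of 10841 genes (6.55%), of which 468 were upregulated (4.32% of all) and 242 downregulated (2.23%). *Wild-type* replicate 3 stood apart from the other libraries of its genotype: without it 1588 genes in all were differentially expressed, against 710 with it. All normalized counts refer to a library of mean effective size.

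Tep2 and Tep1 were the members with the clearest difference between genotypes. Tep1 was 4.81-fold and Tep2 2.12-fold higher in the *dLsd1* mutant, as ratios of mean normalized counts. Tep4 was 1.36-fold, Tep3 1.25-fold and Mcr 1.22-fold higher. Tep1 and Tep2 were past the thresholds, which is 2 of 5 members, where 6.55% of all genes tested were past them in either direction and 4.32% were upregulated. With no limit on the fold, Tep4 joined them under the adjusted p-value threshold, making 3 of 5 members, against 4.79% of all genes. All 5 had a positive log2 fold change, as had 48.1% of all genes. In 4 of 5 members all mutant libraries lay above all *wild-type* libraries, a pattern that 13.2% of the genes tested had. Since this comparison chose the members, nothing is read from these counts. The median log2 fold change of the 5 genes was 0.44, and that of all genes tested was -0.02.

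**Figure D1:**
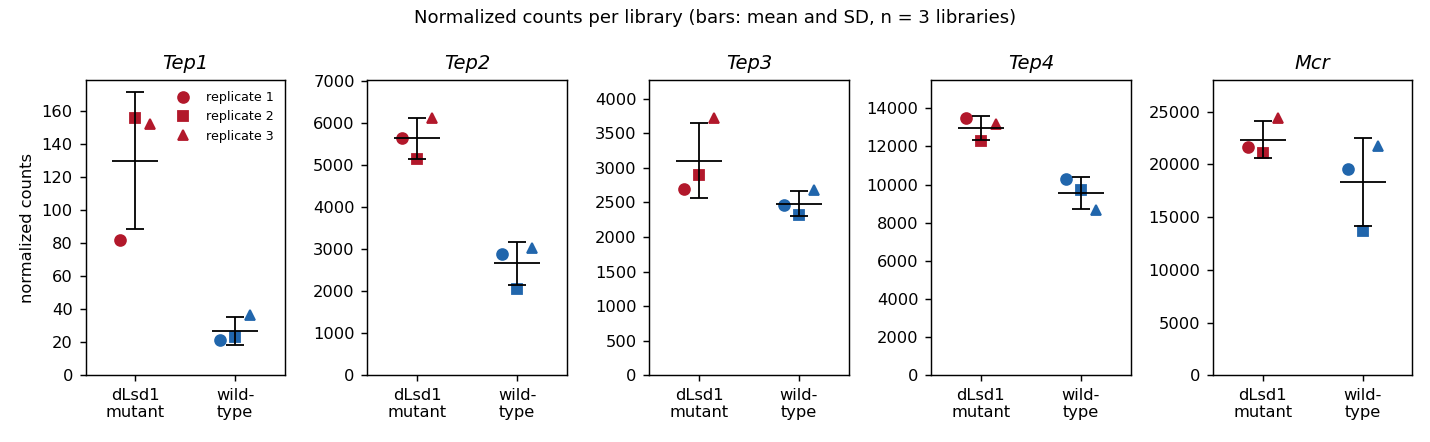
Normalized counts of the 5 genes (vertical axes, each from 0) in each library of the *dLsd1* mutant and of *wild-type*; symbols mark the replicate number and bars the mean and SD of 3 libraries. Mutant and *wild-type* libraries are apart for Tep1, Tep2 and Tep4, touch for Tep3 (2701.5 against 2673.9) and overlap for Mcr.

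Tep1, whose transcript in flies is induced after infection through the JAK-STAT pathway, was the rarest transcript of the family. It had 83, 183 and 156 counts in the *dLsd1* mutant libraries and 24, 9 and 46 in the *wild-type* libraries. After normalization these were 82.0, 155.4 and 151.8 in the mutant and 21.1, 23.2 and 36.6 in *wild-type*, so that the genotypes did not overlap. Mutant replicate 1 was the lowest of the mutant libraries and was still 2.24 times the highest *wild-type* library. The log2 fold change was 2.23 (standard error 0.36, n = 3 libraries per genotype). The value rests on few reads, since 9 counts alone carry a counting error of 33.3%.

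Tep2 is the member with the most annotated transcripts, and in fly cell culture its product promotes the uptake of bacteria. Its normalized counts were 5650.0, 5155.7 and 6117.7 in the *dLsd1* mutant and 2897.5, 2065.9 and 3028.8 in *wild-type*. All mutant libraries were high, with the lowest of them 1.70 times the highest *wild-type* library. The mean was 5641 ± 481.1 in the mutant and 2664 ± 522.2 in *wild-type* (SD, n = 3 each), which is 1.08 on the log2 scale (standard error 0.16). Without *wild-type* replicate 2, its lowest library, the log2 fold change was 0.93.

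Tep3, the divergent neighbour of Tep2, has also been linked to phagocytosis of bacteria in fly cells. It had 2701.5, 2899.2 and 3716.4 normalized counts in the *dLsd1* mutant and 2459.6, 2313.1 and 2673.9 in *wild-type*. The genotypes were barely apart, because the lowest mutant library was 1.01 times the highest *wild-type* library, and mutant replicate 3 alone was well above the rest. The log2 fold change of 0.32 (standard error 0.14) was not past the thresholds, and it was 0.17 without mutant replicate 3.

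The counts of Tep2 relative to Tep3 do not depend on the scaling of the libraries. They were 2.09, 1.78 and 1.65 times those of Tep3 in the *dLsd1* mutant libraries and 1.18, 0.893 and 1.13 times those of Tep3 in the *wild-type* libraries. The ratio was thus higher in each mutant library than in any *wild-type* library, with 1203 bp between the 2 genes. As the ratio is made from the same counts, no test was run on it.

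Tep4, known as a marker of blood progenitors in the larval lymph gland, was the most abundant of the Tep genes. It had 13476.1, 12285.2 and 13173.8 normalized counts in the *dLsd1* mutant and 10291.3, 9713.7 and 8653.6 in *wild-type*. The replicates were close to each other and the genotypes did not overlap, with means of 12978 ± 619.1 in the mutant and 9553 ± 830.6 in *wild-type* (SD, n = 3 each). The log2 fold change of 0.44 (standard error 0.11) lay under the threshold of 0.6. The pseudogene Tep5Psi downstream of it had 14, 15 and 10 counts in the mutant and 4, 0 and 8 in *wild-type*, which was not past the thresholds (adjusted p = 0.254 from edgeR, log2 fold change 1.57). Without *wild-type* replicate 3 it was past them, at a log2 fold change of 2.24.

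Mcr lacks, unlike the classical TEPs, the cysteine of the thioester motif, and in fly cells it has been found to take part in the uptake of yeast. It had 21602.5, 21042.1 and 24356.1 normalized counts in the *dLsd1* mutant and 19538.8, 13654.8 and 21707.9 in *wild-type*. The genotypes overlapped, with *wild-type* replicate 3 inside the mutant range and *wild-type* replicate 2 far below all other libraries. The log2 fold change of 0.29 (standard error 0.18) was within the spread between replicates, and it was 0.11 without *wild-type* replicate 2.

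**Figure D2:**
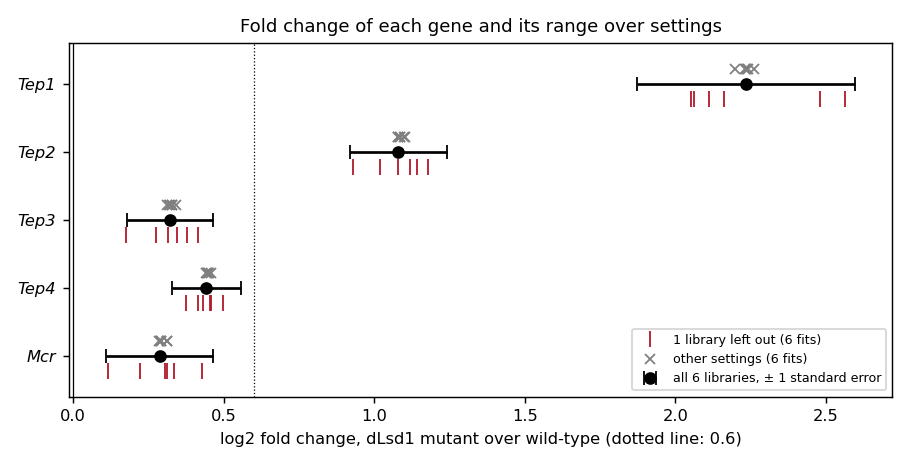
Log2 fold change of each gene, *dLsd1* mutant over *wild-type* (horizontal axis), with 1 standard error from the fit of all 6 libraries; red ticks are fits without 1 library and grey crosses other settings. Tep1 and Tep2 lie right of the dotted line at 0.6 in each fit, while Tep3, Tep4 and Mcr lie between 0 and 0.6 in each fit.

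The call of each member was the same in all 12 alternative fits. Over the 6 fits that each left out 1 library, the log2 fold change ranged from 2.05 to 2.56 for Tep1, from 0.93 to 1.18 for Tep2, from 0.17 to 0.41 for Tep3, from 0.37 to 0.50 for Tep4 and from 0.11 to 0.43 for Mcr. For Mcr the lowest value came without *wild-type* replicate 2 and the highest without *wild-type* replicate 3.

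Levels of different genes were compared as RPKM, the counts per 1000000 of effective library size (CPM) divided by the length of the merged exons in kilobases. The order was Mcr, Tep4, Tep2, Tep3 and Tep1 in the *dLsd1* mutant, with means of 98.5 ± 7.8, 73.7 ± 3.5, 29.6 ± 2.5, 17.5 ± 3.0 and 0.854 ± 0.273 RPKM (SD, n = 3). In *wild-type* the means were 80.7 ± 18.4 RPKM for Mcr, 54.3 ± 4.7 for Tep4, 14.0 ± 2.7 for Tep2, 14.0 ± 1.0 for Tep3 and 0.178 ± 0.055 for Tep1 (SD, n = 3). By this measure Tep2 and Tep3 were level in *wild-type* discs, where their libraries overlapped. In the mutant they were apart, from 27.1 to 32.1 RPKM for Tep2 and from 15.2 to 20.9 RPKM for Tep3. The merged length was 5288 bp for Tep2, over 5 transcripts, and 4928 bp for Tep3, with 1. A merged length can exceed that of any 1 transcript, which would lower the RPKM of Tep2. Mcr and Tep4 did not overlap in either genotype, but in *wild-type* replicate 2 they were close, with 60.2 and 55.2 RPKM.

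Measured against all genes tested, Mcr and Tep4 were highly expressed in *wild-type* discs, at percentiles 90.2 and 84.8 of the level per length. Tep2 and Tep3 were both near the middle, at percentile 55.0, and Tep1 was at percentile 16.0. Mcr gave 50.6% of the counts of the 5 genes in the mutant and 57.0% in *wild-type*, and Tep2 gave 12.7% in the mutant and 8.22% in *wild-type*. Tep1, with the largest fold change, gave 0.298% of them in the mutant and 0.0821% in *wild-type*.

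**Figure D3:**
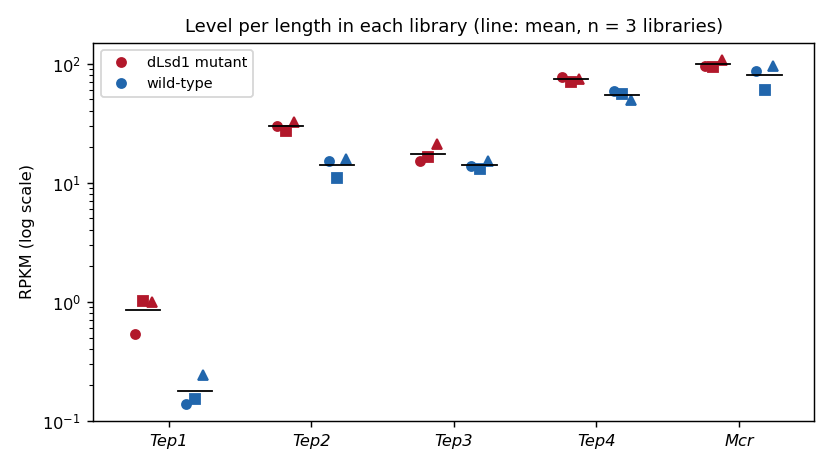
Level per length of each gene in RPKM (vertical axis, log scale) in the *dLsd1* mutant (red, left) and *wild-type* (blue, right) libraries; lines are means of 3 libraries. Tep2 and Tep3 share the same level in *wild-type* (14.0 RPKM each) and differ in the mutant (29.6 and 17.5 RPKM), and Tep1 is far below the other genes in both genotypes.

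Apart from Tep2, which neighbours Tep3, no gene next to a member was past the thresholds in the fit of all 6 libraries. On the other side of Tep2, CG7025 had 1, 4 and 7 counts in the *dLsd1* mutant and 1, 0 and 0 in *wild-type*, and CG43235, which overlaps the end of Tep2, was at 0 in all libraries. Beyond Tep3, Ntl, a transporter-like gene, had 0, 1 and 0 counts in the mutant and 8, 2 and 3 in *wild-type*. In edgeR's fit the adjusted p-value was 0.240 for CG7025 and 0.127 for Ntl. Ntl was past the thresholds without *wild-type* replicate 3, and without *wild-type* replicate 1 it had too few counts to be tested. CG10337, beside Tep4, had 147.7 ± 22.4 normalized counts in the mutant and 158.7 ± 53.4 in *wild-type* (adjusted p = 0.833 from edgeR).

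Next to Mcr, Trf, which codes for a relative of the TATA-binding protein, had 683.7 ± 26.9 normalized counts in the *dLsd1* mutant and 719.2 ± 51.0 in *wild-type*. The difference of -0.07 on the log2 scale had a standard error of 0.11 (edgeR, adjusted p = 0.743). On the other side of Mcr lies Bsg (basigin, an immunoglobulin-family membrane protein). It had 1688.5, 2687.8 and 2673.9 normalized counts in the mutant and 1356, 1550.7 and 5122.6 in *wild-type*, where replicate 3 stood apart. Its log2 fold change of -0.19 turned to 0.70 without that library, and Bsg was then past the thresholds as upregulated. Both neighbours of Tep1, CR31824 and CG31735, had 0 counts in all libraries. The antisense genes asRNA:CR44990, which overlaps Tep3, and asRNA:CR45257, which overlaps Mcr, had at most 2 counts in any library.

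The JAK-STAT pathway, through which cytokines of the unpaired family induce Tep1 in infected flies, was represented by a list of 18 genes without the members. Of these, apt (apontic), a nuclear regulator that dampens the pathway in the ovary, was upregulated, and no gene was downregulated. Over all genes tested, the background for this and each following list, 4.32% were upregulated and 2.23% downregulated. Over all genes, DESeq2 called 534 upregulated and 280 downregulated, and the fit with the replicate number as a block 501 and 258. Without *wild-type* replicate 3 these numbers were 1177 and 411. Apt had 1203 ± 162.6 normalized counts in the *dLsd1* mutant and 770.6 ± 108.3 in *wild-type* (log2 fold change 0.64, adjusted p = 0.0432 from edgeR). The call held in 2 of 6 fits that left out 1 library and was lost without mutant replicate 2, mutant replicate 3, *wild-type* replicate 1 or *wild-type* replicate 2. The median log2 fold change of the list was 0.14. At an unadjusted p-value under 0.05 there were 4 genes with a higher and 0 with a lower value. The share of all genes under this unadjusted cut was not computed. Such counts stand without a background here and in each following list.

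The ligand genes upd1, upd2 and upd3 overlapped between genotypes. The log2 fold change was -0.05 for upd1 and -0.43 for upd2 (adjusted p-values 0.888 and 0.602 from edgeR). For upd3, the ligand of the response to damage and infection, the counts were 51, 41 and 25 in the *dLsd1* mutant and 24, 10 and 29 in *wild-type* (log2 fold change 0.66, standard error 0.38, adjusted p = 0.394 from edgeR). The receptor gene dome and the kinase gene hop had log2 fold changes of 0.02 and 0.24, and the transcription factor gene Stat92E of 0.21 (adjusted p-values 0.946, 0.538 and 0.649 from edgeR). Socs36E, a feedback inhibitor that is itself a target of the pathway, had 2193 ± 342.2 normalized counts in the mutant and 2466 ± 419.6 in *wild-type*, a log2 fold change of -0.17 (adjusted p = 0.612 from edgeR).

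The turandot genes are stress-induced targets of the same pathway. Only TotA and TotM of the 8 had enough counts to be tested, and both overlapped between genotypes. TotA had 223, 227 and 28 counts in the *dLsd1* mutant and 165, 91 and 13 in *wild-type* (log2 fold change 0.24, standard error 1.14, adjusted p = 0.929 from edgeR).

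Toll pathway genes, which code for the cascade that senses Gram-positive bacteria and fungi, had 3 upregulated and 0 downregulated members among 21 tested, with a median log2 fold change of 0.19. Of all genes tested 4.32% were upregulated and 2.23% downregulated. All mutant libraries lay above all *wild-type* libraries in 8 genes of the list and below them in 4. Of all genes tested, 13.2% and 11.9% had these patterns. GNBP3, a recognition gene among the 4, had a log2 fold change of -0.51, short of the fold threshold (adjusted p = 0.0714 from edgeR). SPE, the protease that cleaves the Toll ligand Spz, rose to 492.4 ± 19.9 normalized counts in the *dLsd1* mutant, against 161.7 ± 5.6 in *wild-type* (SD, n = 3; log2 fold change 1.60, adjusted p = 0.000233 from edgeR). Dif, an NF-kB factor of the pathway, rose to 253.6 ± 32.5, against 111.0 ± 22.9 in *wild-type* (log2 fold change 1.21, adjusted p = 0.0142 from edgeR). It was no longer called without mutant replicate 2. Psh (persephone), a protease that senses microbial proteases, had 36, 31 and 35 counts in the mutant and 13, 6 and 15 in *wild-type* (log2 fold change 1.33, adjusted p = 0.0854 from edgeR). Psh was called in 1 of 6 fits that left out 1 library, and it was not called with the replicate number as a block, which left 2 upregulated genes in the list. The ligand gene spz (-0.06) and the receptor gene Tl (0.55) had log2 fold changes that were not past the thresholds, although Tl was called without *wild-type* replicate 3. At an unadjusted p-value under 0.05, 7 genes of the list were higher and 3 were lower. The share of all genes under that cut was not computed, so nothing is read from these counts. DESeq2 called 3 upregulated and 0 downregulated. Without mutant replicate 2 there was 1 upregulated gene in the list, of 228 in all. Without *wild-type* replicate 3 there were 4, of 1177 in all.

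Imd pathway genes code for the response to Gram-negative bacteria, and 1 of 19 tested was upregulated and 0 downregulated (median log2 fold change -0.04). PGRP-SB1, which codes for an enzyme that cleaves peptidoglycan, had 58, 133 and 84 counts in the *dLsd1* mutant and 27, 6 and 12 in *wild-type* (log2 fold change 2.36, standard error 0.43, adjusted p = 0.0174 from edgeR). The genotypes did not overlap. The receptor gene PGRP-LC (log2 fold change 0.38) and the NF-kB gene Rel (0.00) were not past the thresholds. At an unadjusted p-value under 0.05 (share of all genes not computed), 2 genes were higher and 2 lower. DESeq2 called 1 upregulated and 1 downregulated.

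The antimicrobial peptide genes, the main outputs of both cascades in infected flies, were close to the limit of detection. Of 27 genes 13 could be tested, and 8 of these had 3 counts or fewer in each library of a genotype. By edgeR 0 were called, and DESeq2 called 2 upregulated. At an unadjusted p-value under 0.05 by edgeR (share of all genes not computed), 3 were higher and 1 was lower. The median log2 fold change was 1.14, or 0.20 with the genes of 3 counts or fewer at their bound against 3 counts per library. The summed level was from 2.30 to 6.84 CPM in the *dLsd1* mutant and from 1.57 to 2.07 in *wild-type*. Mutant replicate 2 was the highest. BomS3 had 10, 89 and 3 counts in the mutant and 4, 0 and 0 in *wild-type*, and Drs had 2, 40 and 1 in the mutant and 1, 0 and 3 in *wild-type*.

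**Figure D4:**
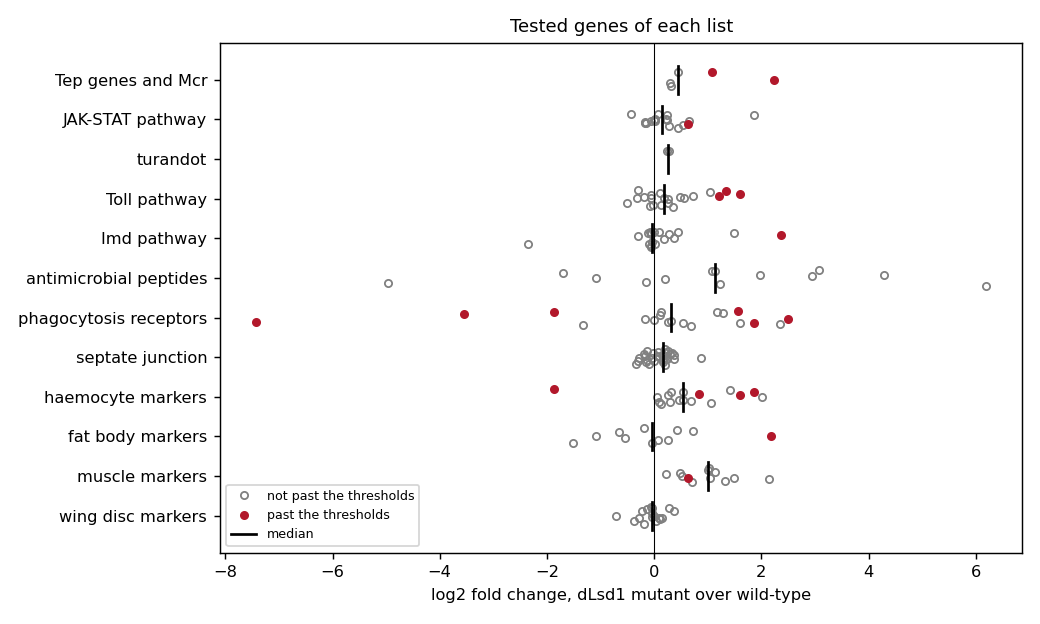
Log2 fold change, *dLsd1* mutant over *wild-type* (horizontal axis), of each tested gene of the TEP family and of 11 lists; filled points were past the thresholds and black lines are medians. The medians lie between -0.05 and 0.31, apart from those of the TEP family (0.44), the haemocyte markers (0.53), the muscle markers (1.01) and the antimicrobial peptides (1.14), and Dscam4 lies farthest to the left.

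Phagocytosis receptors are surface proteins through which haemocytes take up microbes and dead cells, and the list also holds genes related to them. Among 19 tested genes 3 were upregulated (NimB1, Sr-CI and Sr-CIV) and 3 downregulated (NimC1, pes and Dscam4), with a median log2 fold change of 0.31. Sr-CI, a scavenger receptor for bacteria, had 52, 182 and 158 counts in the *dLsd1* mutant and 35, 9 and 53 in *wild-type* (log2 fold change 1.86, adjusted p = 0.0583 from edgeR). Its relative Sr-CIV had 9, 20 and 17 counts in the mutant and 4, 0 and 3 in *wild-type* (adjusted p = 0.0806 from edgeR). With the replicate number as a block, 1 gene of the list was upregulated and 3 were downregulated, and NimB1 and Sr-CIV were not called. Without *wild-type* replicate 3 there were 7 upregulated genes in the list and 1177 in all. There were 0 without mutant replicate 2, mutant replicate 3, *wild-type* replicate 1 or *wild-type* replicate 2. Those fits called 228, 273, 283 and 414 genes upregulated in all, against 468 with all libraries.

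The downregulated receptors included the phagocytosis receptor gene NimC1, a plasmatocyte marker, with 9, 31 and 27 counts in the *dLsd1* mutant and 97, 35 and 68 in *wild-type* (log2 fold change -1.88, adjusted p = 0.0511 from edgeR). Pes (peste), a class B scavenger receptor gene, fell to 47.9 ± 5.9 normalized counts in the mutant, against 557.7 ± 120.2 in *wild-type* (log2 fold change -3.55, adjusted p = 4.1e-05 from edgeR). Dscam4, a paralogue of the immune receptor gene Dscam1, had 12, 7 and 7 counts in the mutant and 1063, 361 and 2956 in *wild-type* (log2 fold change -7.42, adjusted p = 0.00210 from edgeR). Pes and Dscam4 were called in each of the 6 fits without 1 library, and NimC1 and Sr-CI in 2 of 6. The receptor genes eater and drpr had log2 fold changes of 0.53 and 0.00 (adjusted p-values 0.429 and 0.990 from edgeR), with eater called only without *wild-type* replicate 3.

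Septate junction genes are the partners of Mcr in the disc epithelium. Of 30 tested, 0 were called by edgeR or by DESeq2, and 2 were upregulated in edgeR's fit without *wild-type* replicate 3. That fit called 1177 genes upregulated in all. With all libraries, at an unadjusted p-value under 0.05 (share of all genes not computed) there was 1 gene with a higher and 0 with a lower value. The median log2 fold change was 0.16. Nrx-IV, a core membrane protein of the junction, had 21257 ± 1150 normalized counts in the *dLsd1* mutant and 16385 ± 3270 in *wild-type* (log2 fold change 0.38, standard error 0.16, adjusted p = 0.250 from edgeR). Cora, a scaffold protein gene, had a log2 fold change of 0.15 and Atpalpha, a subunit gene of the sodium pump, of -0.17 (adjusted p-values 0.469 and 0.466 from edgeR).

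Blood cells and fat body can adhere to dissected discs, and in bulk RNA a larger number of such cells and more RNA per cell cannot be told apart. Of 17 haemocyte markers, 16 had a positive log2 fold change (median 0.53), as had 48.1% of all genes tested. In the list 3 markers were upregulated (Sr-CI, PPO1 and PPO3) and 1 was downregulated (NimC1), where 4.32% of all genes were up and 2.23% down. The list shares NimC1, eater, crq and Sr-CI with that of the phagocytosis receptors. With the replicate number as a block 5 were upregulated, and DESeq2 also called 5. Without *wild-type* replicate 3 there were 7 upregulated markers, in a fit with 1177 upregulated genes in all. There were 0 upregulated markers without mutant replicate 2 or without *wild-type* replicate 1, in fits with 228 and 283 upregulated genes in all. The summed level was 300.5 to 389.9 CPM in the *dLsd1* mutant and 233.0 to 307.0 in *wild-type*. Most of the sum came from Col4a1, vkg, ush and crq. They had 2853, 2127, 2014 and 1360 mean normalized counts in *wild-type*, against 146.6 for Hml. How far these genes reflect haemocytes in the discs was not tested.

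PPO1, a prophenoloxidase gene of crystal cells, had 403, 1091 and 775 counts in the *dLsd1* mutant and 184, 81 and 386 in *wild-type* (log2 fold change 1.61, adjusted p = 0.0733 from edgeR). PPO3, the prophenoloxidase gene of lamellocytes, had 246, 244 and 171 counts in the mutant and 156, 41 and 129 in *wild-type* (log2 fold change 0.83, adjusted p = 0.0730 from edgeR). Hml, the marker of mature plasmatocytes and crystal cells, overlapped, with 116, 230 and 237 counts in the mutant and 152, 49 and 226 in *wild-type* (log2 fold change 0.29, adjusted p = 0.615 from edgeR). No haemocyte marker other than lz was at 0 in any library. The part of haemocytes in the values of Tep1, Tep2 and Tep4 was not tested.

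Fat body markers varied widely within each genotype. Their summed level was 756.7, 538.0 and 310.7 CPM in the *dLsd1* mutant and 741.3, 1021 and 221.4 in *wild-type*. Of 11 tested, 5 had a positive log2 fold change (median -0.04), 1 was upregulated and 0 were downregulated. With the replicate number as a block 2 were upregulated and 1 was downregulated. The upregulated marker without the block was Lsp1alpha, a larval serum protein gene (log2 fold change 2.17, adjusted p = 0.0535 from edgeR), which was called in 2 of 6 fits without 1 library. Lsp2, another serum protein gene, had 5788, 4307 and 1442 counts in the mutant and 7431, 3888 and 692 in *wild-type* (log2 fold change -0.66, adjusted p = 0.756 from edgeR). The value for Lsp2 was 0.02 without *wild-type* replicate 2, -1.17 without mutant replicate 1, -0.28 without mutant replicate 3, -1.20 without *wild-type* replicate 3 and -0.12 with the replicate block. The part of fat body in the values of the Tep genes was not tested.

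All 12 muscle markers had a positive log2 fold change (median 1.01), as had 48.1% of all genes tested. In 2 of 12 all mutant libraries lay above all *wild-type* libraries, as in 13.2% of all genes. The summed levels of the markers did not overlap between genotypes, ranging from 123.4 to 165.5 CPM in the *dLsd1* mutant and from 82.5 to 103.8 in *wild-type*. Only Mlc2 was called by edgeR (log2 fold change 0.63, adjusted p = 0.0941), in 0 of 6 fits without 1 library. Of all genes tested 4.32% were upregulated. With the replicate number as a block 5 were upregulated, and DESeq2 called 4. The part of muscle cells in the values of the Tep genes was not tested. Of 7 tracheal markers 0 were called by either tool. At an unadjusted p-value under 0.05 by edgeR (share of all genes not computed), 1 was higher and 1 was lower. The lower one was serp, with 5713 ± 652.8 normalized counts in the mutant and 8610 ± 179.9 in *wild-type*. Its adjusted p-value was 0.0250 from edgeR, and its log2 fold change of -0.59 lay just short of the fold threshold.

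Of 17 wing disc markers 0 were called by edgeR or DESeq2, and 1 had an unadjusted p-value under 0.05 (share of all genes not computed). Their summed level was 2434 to 2709 CPM in the mutant and 2014 to 3862 in *wild-type*, where replicate 3 gave the highest value. All 17 had enough counts to be tested, and 3 were upregulated without *wild-type* replicate 3, in a fit with 1177 upregulated genes in all.

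**Figure D5:**
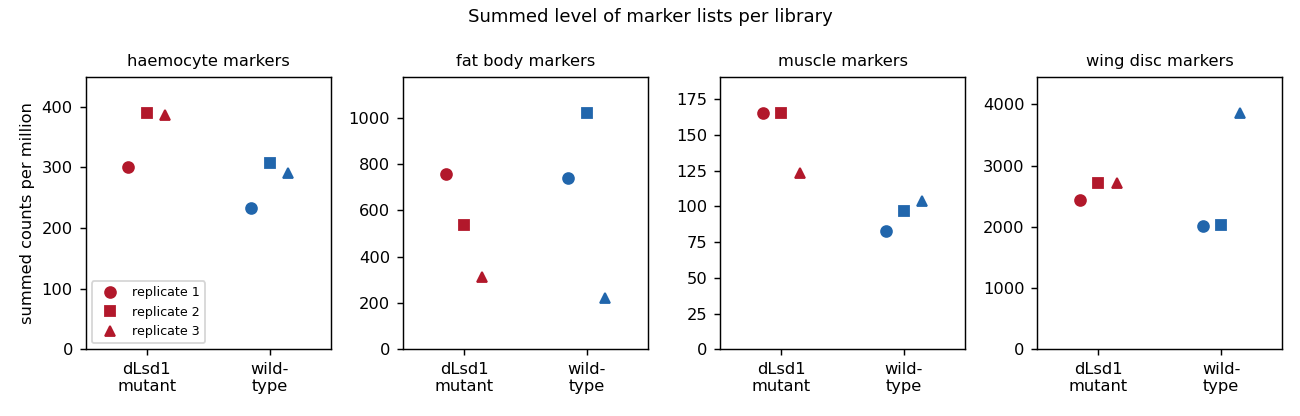
Summed CPM of 4 marker lists (vertical axes, from 0) in each library of the *dLsd1* mutant and of *wild-type*; symbols mark the replicate number. Haemocyte markers overlap between the genotypes, fat body markers vary from 221.4 to 1021 within *wild-type* alone, muscle markers do not overlap, and wing disc markers peak in *wild-type* replicate 3.

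Over the 6 libraries the members followed each other to different degrees. Pearson's r of log2 CPM was 0.92 between Tep1 and Tep2, 0.83 between Tep1 and Tep3 and 0.79 between Tep1 and Tep4. For Tep2 it was 0.81 with Tep3 and 0.87 with Tep4, and for Tep3 and Tep4 it was 0.62. With Mcr it was 0.66 for Tep1, 0.82 for Tep2, 0.77 for Tep3 and 0.48 for Tep4. Each of these is a description over 6 libraries that share the genotype difference and the library scaling.

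Among 8190 genes with a mean of at least 30 counts, the 3 whose pattern was most like Tep2 were CG14598 (r = 0.998), Nt5b (0.996) and the cuticle protein gene Cpr11A (0.996). They had log2 fold changes of 0.98, 0.71 and 1.29. These genes were picked for values in the same 6 libraries, so that a difference between genotypes like that of the member is largely fixed by the choice and no test is given. For Tep1 they were Targ2, lncRNA:CR44024 and CG15005, with r of 0.996, 0.993 and 0.991. Their log2 fold changes were 0.33, 2.18 and 1.92.

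For Tep4 the closest genes were iPLA2-VIA, a phospholipase gene, lncRNA:CR44043 and the peroxiredoxin gene Prx3, with log2 fold changes of 0.31, 2.79 and 0.37. For Tep3 they were lncRNA:CR45184, Cyp4e1 and the mismatch repair gene Msh6, with log2 fold changes of 0.13, 0.51 and 0.26. For Mcr they were Nup188, a nuclear pore gene, the Dicer gene Dcr-2 and Grip75, a gene of the gamma-tubulin complex, with log2 fold changes of 0.24, 0.27 and 0.35.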

How the data were processed

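RNA-seq was measured in 6 libraries, 3 per genotype. According to the paper's methods and the submitters' processing notes, the authors trimmed reads with Trimmomatic 0.36, aligned them to dm6 with STAR 2.5.2a and used Picard against duplicates. Deposited were raw whole-number counts per gene (17471) and TE family (171), in the format of TEToolkit. The annotation release, strand setting and treatment of reads with several matches are not given in the sources used here, and reads of paralogues could be shared.

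Symbols, positions and merged exon lengths came from the BDGP6 annotation (dm6 coordinates) by FlyBase identifier, for 17249 genes. Features with at least 10 summed counts (10991) were fitted with edgeR 4.0.16 in R 4.3.3 (TMM, robust quasi-likelihood, genotype as the only term), checked on simulated data. The standard error was taken as the absolute log2 fold change over the root of the F statistic. Depth per library is given with the results, and intervals from counts cover counting error only. Every replicate pair differed by more than sampling noise. Alternatives were DESeq2 1.42.0, upper-quartile factors, a fit without TE families, no filter, filterByExpr, a replicate block, stricter thresholds and each library left out. The genotypes share replicate numbers 1 to 3. Deviations of same-numbered libraries from their genotype means correlated at 0.20, 0.11 and 0.30. All 3 were over 0.1, the planned limit for taking the libraries as paired. Each mutant library correlated best with the *wild-type* library of its own number. The differently numbered mutant replicate 1 and *wild-type* replicate 2 correlated at 0.13, above the 0.11 of the replicate 2 pair, so a pairing by number is not settled. The main fit uses no pairing, and the replicate block does. Any pairing comes from these data, not from the labels. The members and lists were chosen with earlier results of these data known. Named genes were the members, Tep5Psi, *dLsd1*, neighbours with a line in the tables, fixed pathway genes by role, up to 4 called genes per list and the 3 most similar genes per member (log2 CPM, prior count 2). NimB1, GNBP3, BomS3, Drs and single markers were picked after their values were seen. No sequence was analysed here, nor were the listed genes wg, btl and scb.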

Additional observations from a re-analysis of the deposited data

How the results depend on the processing

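Tep1 and Tep2 kept their direction and stayed past the thresholds in all 12 alternative fits, and Tep3, Tep4 and Mcr stayed short of them with a positive value. Apart from the fits without 1 library, the log2 fold change ranged from 2.20 to 2.26 for Tep1, 1.08 to 1.10 for Tep2, 0.31 to 0.34 for Tep3, 0.44 to 0.46 for Tep4 and 0.28 to 0.31 for Mcr. The replicate block gave 2.20, 1.10, 0.31, 0.44 and 0.31 for the 5 genes in this order and 759 differentially expressed genes. Without 1 library the number of such genes ranged from 373 to 1588, with 228 to 1177 upregulated and 145 to 411 downregulated. The highest came without *wild-type* replicate 3 and the lowest without mutant replicate 2. Thresholds of 1 on the log2 scale and 0.05 gave 391 genes, 263 up and 128 down. With 1 library left out, the log2 fold change of Bsg lay between -0.51 and 0.70, the reversed value being that without *wild-type* replicate 3. That fit also gave 1 upregulated and 1 downregulated antimicrobial peptide gene, 2 upregulated JAK-STAT genes, 4 upregulated muscle markers, and 1 downregulated gene each in the Toll and Imd lists. For tracheal markers 1 was downregulated without mutant replicate 1 or without *wild-type* replicate 2. The cause of these shifts was not tested. Among 54 other named genes, 579 of 642 alternative values kept the call, 58 lost it, 4 gained it and 1 reversed. Of 14 called list genes that were named by rule, 4 kept the call in all fits: SPE, PGRP-SB1, pes and Dscam4. Among called named genes the replicate block took the call from psh, Sr-CIV and NimB1. It moved the numbers of upregulated phagocytosis receptors (1), haemocyte (5), muscle (5) and fat body markers (2, with 1 downregulated). It changed no other call of a named gene. Low counts limit Tep1, and they left 6 of 8 turandot and 14 of 27 antimicrobial peptide genes untested. CG7025 and Ntl could not be tested in some fits.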
